A study of Mus musculus with 24 samples.

Results

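The comparison described here set E14 mouse embryonic stem cells (mESCs) on soft StemBond hydrogels against the same cells on stiff StemBond hydrogels, 12 h after the MEK inhibitor PD03 was taken out of the medium. Its libraries were taken by their labels: 2 soft and 2 stiff libraries at 12 h in CHIRON + LIF, which are 4 of the 24 libraries of the series and 4 of the 12 libraries of the PD03 removal experiment. StemBond hydrogels are polyacrylamide gels to which the coating protein, here fibronectin, is firmly tethered, so that stiffness can be varied without the colonies coming off. All cells were of 1 wild-type 129 line, E14, and spent 12 h on their gel in 2i + LIF with 1 µM PD03 and 3 µM CHIRON before PD03 was removed at 0 h. The libraries at 12 h had therefore been on their gels for longer than those at 0 h, and time since removal and time on the gel cannot be told apart. The paper describes these experiments as done in triplicate, while 2 libraries a group were available. Whether these came from separate cultures is not stated, so the p-values measure only the spread between these libraries.

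PD03 blocks MEK, the kinase that activates ERK, and its removal lets FGF signalling reach ERK, which drives mESCs out of the naïve state. ERK switches on its own inhibitors, such as the Dusp phosphatases and the Sprouty proteins, within hours. CHIRON inhibits GSK3 and so stabilises β-catenin, LIF acts through STAT3, and the pair can hold mESCs in the naïve state without PD03. Genes of the naïve network, such as *Tfcp2l1*, are then read beside genes of the next, formative state.

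Total counts were 19131707 and 20401823 on soft and 18830159 and 16222196 on stiff substrates at 12 h, and between 73.1% and 74.5% of them fell on protein-coding genes. Levels are given as normalised CPM, which are counts scaled to a common library size, and differences as log2 fold changes of soft against stiff, so that a negative value is lower on soft. Markers of mESCs summed to 6573 and 6734 CPM on soft and 6389 and 6373 on stiff substrates, and without *Tfcp2l1*, the only one of them called, to 4570.0 and 4750.0 against 4694 and 4650.0, where the groups overlapped. Feeder fibroblast markers summed to between 11.3 and 12.7 CPM in the 4 libraries, with *Dcn* and *Twist2* at 0 counts. Primitive streak markers summed to 55.5 and 55.2 CPM on soft and 67.9 and 65.2 on stiff substrates, against 23.8 to 27.6 at 0 h, and the part of this in the results was not tested. None of the tested genes of the fibroblast, primitive endoderm, trophoblast, primitive streak or neural lists passed the threshold between soft and stiff. In bulk RNA, fewer cells of a type and less RNA per cell cannot be told apart.

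Of 13422 protein-coding genes tested, 103 (0.767%) differed between soft and stiff substrates at 12 h, 64 (0.477%) lower and 39 (0.291%) higher on soft. The test was the quasi-likelihood test of edgeR with Benjamini-Hochberg adjustment and a threshold of 0.05, and all 12 libraries gave the spread. Lower on soft were the ERK feedback genes *Dusp6*, *Dusp4*, *Spry4* and *Spred1*, the amino acid transporter gene *Slc7a7*, the RNA-binding protein genes *Lin28a* and *L1td1*, and 7 messenger RNAs of the mitochondrial genome, of which *Spred1* and the 7 mitochondrial genes did not pass with DESeq2. Higher on soft were the water and glycerol channel gene *Aqp3*, the receptor gene *Kit*, the naïve factor gene *Tfcp2l1*, and the metabolic enzyme genes *Upp1*, *Hk1*, *Ldhb* and *Cdo1*. Below, the called genes are described in function groups that were formed after the calls were known, so that the split of a group depends on which genes were placed in it. The differences were small. The median difference was 1.26-fold among the genes lower and 1.24-fold among those higher on soft, and 48 of the 64 and 34 of the 39 had an absolute log2 fold change (log2FC) under 0.5. Only 4 exceeded 1 in size, namely *Atp1a4*, *Ptgs1* and *Cpn1* (lower) and *Cyp1a1* (higher). The median log2FC over all tested genes was −0.0023. In all 103 genes the soft and stiff libraries did not overlap at 12 h, as was so for 40.5% of all genes tested.

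**Figure D1:**
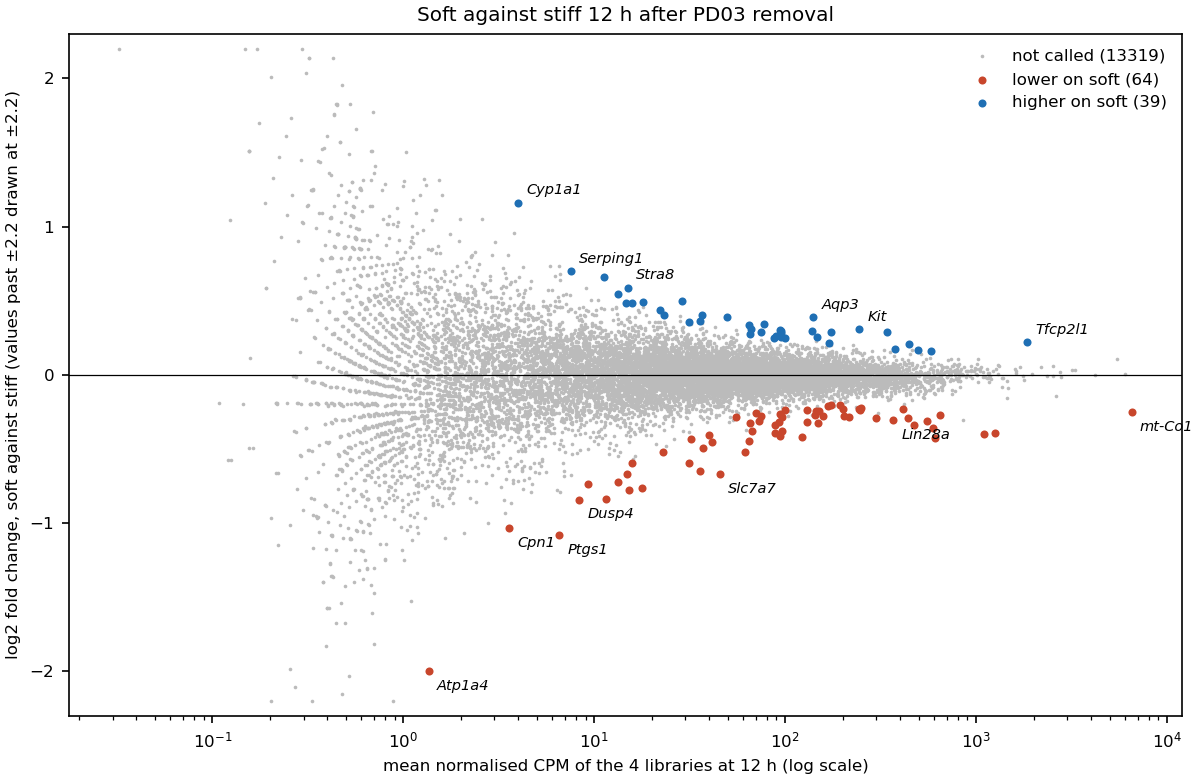
Log2 fold change of soft against stiff at 12 h (vertical axis, values past ±2.2 drawn at ±2.2) against the mean normalised CPM of the 4 libraries (horizontal, log scale), 1 point per gene tested. Coloured points are the 64 genes lower and the 39 higher on soft that passed edgeR's test, and most of them lie within ±0.5.

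Most calls needed all 4 libraries. Without soft replicate 1, 32 genes passed, and without soft replicate 2, 28 genes did. Without stiff replicate 1, 12 genes passed, and without stiff replicate 2, 21 genes did. Only 7 genes passed in each of these fits and under every other alternative tried, namely *Dusp6*, *Soga3*, *Slc7a7*, *Lin28a*, *L1td1*, *Aqp3* and *Kit*. The other 96 lost their call without at least 1 library, and 54 of them in every such fit, although all 103 kept their direction. With DESeq2, 72 of the 103 passed. Calls lost with it were those of *Braf*, *Spred1*, *Myc*, *Rhox5*, *Sf3a2*, *Sf3b4*, *Lyar*, *Adam23*, *Gja1*, *Slmap*, *Tnni1*, *Cpn1*, *Etfa*, *Man2a1*, *Atg7*, *Glmp*, *Cntfr*, *Trpm1*, *Mbp*, *Mobp*, *Crybg3*, *Fam129b*, *2510009E07Rik* and the 7 mitochondrial genes, while *Atp1a4* was given no adjusted p. With the 4 libraries at 12 h alone as the source of the spread, 175 genes passed, and all 103 were among them. At the edge of the threshold, *Glmp*, *Tnni1* and *Lyar* lay just inside, with adjusted p = 0.0492, 0.0476 and 0.0475 by edgeR and log2FC of 0.25, 0.49 and −0.23. *Jph4*, *Pabpc4* and *Plaur* lay just outside, at 0.05, 0.0523 and 0.0528, with log2FC of −2.25, −0.21 and −0.79. No source says whether reads were counted by strand, and 42 of the 103 genes are overlapped by an annotated gene on the opposite strand, so that reads of such a pair may not have been told apart.

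Among genes of the ERK cascade and its feedback, 5 were called and all 5 were lower on soft. *Dusp6*, which encodes the phosphatase that inactivates ERK in the cytoplasm (GRCm38 chromosome 10, 99263231 to 99267489), had 75.6 and 76.6 CPM on soft and 99.9 and 100.2 on stiff substrates. The difference was 1.31-fold (log2FC −0.39 ± 0.0558 SE, edgeR adjusted p = 0.000343). Both soft libraries lay below both stiff libraries at each time, with 35.0 and 34.5 against 38.5 and 40.8 CPM at 0 h and 128 and 131 against 176 and 178 at 2 h. *Dusp4*, a nuclear phosphatase of ERK, had 6.88 and 5.08 CPM on soft and 10.6 and 10.8 on stiff (log2FC −0.84 ± 0.169 SE, edgeR adjusted p = 0.00834). *Spry4*, which restrains Ras and Raf, had 105 and 104 against 144 and 135 CPM (log2FC −0.42 ± 0.0688 SE, edgeR adjusted p = 0.00183), and it passed at 2 h too, with a log2FC of −0.39. *Spred1*, of the related Spred family, and *Braf*, the kinase above MEK, had log2FC of −0.20 and −0.28 (standard errors 0.0496 and 0.0658), and both lost their call with DESeq2. *Braf* overlaps *Ndufb2* on the opposite strand. Without stiff replicate 1, 1 of these 5 genes passed, and without soft replicate 1, soft replicate 2 or stiff replicate 2, 3, 2 and 2 did.

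Most other genes of the lists around them were not called. Of 10 Dusp phosphatase genes tested, *Dusp6* and *Dusp4* were lower on soft, with a list median of −0.043 against −0.0023 for all genes. Of 9 genes of Sprouty and Spred feedback, *Spry4* and *Spred1* were lower, with a median of −0.13, and the uncalled *Spry1* and *Spry2* had log2FC of −0.45 and −0.15 (adjusted p = 0.1 and 0.263, edgeR). Of 19 genes of Ras, Raf, MEK and ERK, *Braf* was the only one called, and the median was 0.030. Of 12 immediate early genes, which respond first to ERK, *Myc* alone was called, with *Fos* at 0.19 and *Egr1* at −0.20 (standard errors 0.324 and 0.769). The median of this list was −0.016 at 12 h, and its highest value was that of the uncalled *Egr2*, at 3.18. At 2 h the median was −0.42, with 11 of the 12 genes below 0. None of the 10 tested genes of FGF ligands and receptors was called. Of 12 ETS transcription factor genes, which include targets and effectors of ERK, *Etv4* was lower and *Elf3* higher on soft, and the uncalled *Etv5* had a log2FC of 0.0092.

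Transcription factors and regulators of signalling made up 12 of the called genes, 10 of them lower on soft. *Etv4* had 263 and 276 CPM on soft and 324 and 335 on stiff substrates (log2FC −0.29 ± 0.0487 SE, edgeR adjusted p = 0.00233). Its soft libraries lay below the stiff ones at 0 h and at 2 h as well. *Smad7*, which blocks signalling by receptors of the TGF-β family, had 110.5 and 121 against 148 and 141 CPM (log2FC −0.32 ± 0.0551 SE, edgeR adjusted p = 0.00288). It also passed at 0 h and at 2 h, with log2FC of −0.30 and −0.46. *Zfp423*, a zinc finger partner of Smad proteins, had 13.7 and 12.7 CPM on soft and 22.4 and 22.3 on stiff (log2FC −0.76 ± 0.129 SE, edgeR adjusted p = 0.00233). *Foxp4*, a forkhead factor, had 58.2 and 58.0 against 76.4 and 74.5 CPM, a log2FC of −0.38. *Myc*, a driver of growth, had 14.2 and 10.9 against 19.7 and 18.1 CPM (log2FC −0.59 ± 0.134 SE, edgeR adjusted p = 0.0214), and its call was lost with DESeq2. *Rarg*, a retinoic acid receptor, *Zfp532*, a zinc finger protein, *Ssbp4* and *Trib1*, a pseudokinase that brings substrates to a ubiquitin ligase, had log2FC from −0.52 (*Trib1*) to −0.24 (*Rarg*). On the other side stood *Tfcp2l1* and *Elf3*, an epithelial ETS factor, the latter with 105 and 103 CPM on soft and 85.6 and 85.1 on stiff (log2FC 0.28 ± 0.0562 SE, edgeR adjusted p = 0.00802).

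*Tfcp2l1*, a factor downstream of LIF and of β-catenin that holds mESCs in the naïve state (GRCm38 chromosome 1, 118627945 to 118685168), had 2003 and 1984 CPM on soft and 1695 and 1723 on stiff substrates (log2FC 0.22 ± 0.0398 SE, edgeR adjusted p = 0.00355). At 0 h it had 2531 and 2548 CPM on soft and 2419 and 2467 on stiff, so that both soft libraries were above both stiff ones, and at 2 h, with 2532 and 2438 against 2228 and 2480.3, the groups overlapped. Of 16 naïve genes tested, *Tfcp2l1* and *Fbxo15* were higher on soft and the others were not called, with a median of 0.031. *Fbxo15*, a marker gene of undifferentiated cells, had 402 and 398 CPM on soft and 350.2 and 359 on stiff, a log2FC of 0.17, and it overlaps *Timm21* on the opposite strand. The uncalled *Nanog*, *Klf4* and *Esrrb* had log2FC of 0.11, 0.15 and 0.027 (adjusted p = 0.293, 0.324 and 0.885, edgeR). Below 0 were 5 of the 16, among them the uncalled *Nr0b1* and *Gbx2* at −0.18 and −0.19 (adjusted p = 0.0852 and 0.144, edgeR). Of 10 general pluripotency genes tested, *Utf1* and *L1td1* were lower on soft and the other 8 were not called. The log2FC of all 10 was below 0, against 50.7% of all genes tested, with a median of −0.15, and *Pou5f1* and *Sox2* were at −0.046 and −0.067 (adjusted p = 0.822 and 0.679). Of 15 formative and primed genes, *Etv4* was among those lower on soft and none was higher. The list median was −0.039, with 9 of the 15 genes below 0. The uncalled *Otx2* and *Dnmt3b* had log2FC of −0.56 and −0.14 (adjusted p = 0.431 and 0.153, edgeR). The uncalled *Pou3f1* lay the other way, at 0.36 (adjusted p = 0.862, edgeR).

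Of 8 called genes placed under pluripotency and early embryo, 6 were lower on soft and *Fbxo15* and *Stra8* were higher. *Lin28a*, which blocks maturation of the let-7 microRNAs (GRCm38 chromosome 4, 134003330 to 134018841), had 331 and 326 CPM on soft and 404 and 406 on stiff substrates (log2FC −0.30 ± 0.0457 SE, edgeR adjusted p = 0.000804). At 0 h the values were 112 and 106 against 118 and 111 CPM, where the groups overlapped, and at 2 h they were 114 and 117 against 118 and 119.6. It was the only 1 of 13 genes of the Lin28 and let-7 list called, with a list median of 0.032, and the uncalled *Lin28b* had a log2FC of 0.21. *L1td1*, an RNA-binding protein derived from a LINE-1 element, had 589.7 and 580.4 against 705 and 708 CPM at 12 h (log2FC −0.27 ± 0.0441 SE, edgeR adjusted p = 0.00178). *Utf1*, a chromatin protein of undifferentiated cells, had 46.7 and 54.1 against 76.5 and 67.6 CPM, a log2FC of −0.52. *Dnmt3l*, the cofactor of the de novo DNA methyltransferases, had 197 and 191 against 237 and 236 CPM, a log2FC of −0.28, and it passed at 0 h (−0.33) and at 2 h (−0.32) as well. It overlaps *Aire* on the opposite strand, and the other 13 genes of DNA methylation and demethylation were not called. *Peg10*, an imprinted gene derived from a retrotransposon, had 84.0 and 78.1 against 109 and 107 CPM (log2FC −0.41 ± 0.0644 SE, edgeR adjusted p = 0.00113), and it was the only 1 of 20 imprinted genes tested that was called. *Rhox5*, an X-linked homeobox gene, had a log2FC of −0.31. *Stra8*, a gene switched on by retinoic acid at entry into meiosis, was higher on soft, with 18.0 and 18.0 against 12.4 and 11.5 CPM (log2FC 0.59), and with *Rarg* it was called among 13 genes of the retinoic acid list.

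**Figure D2:**
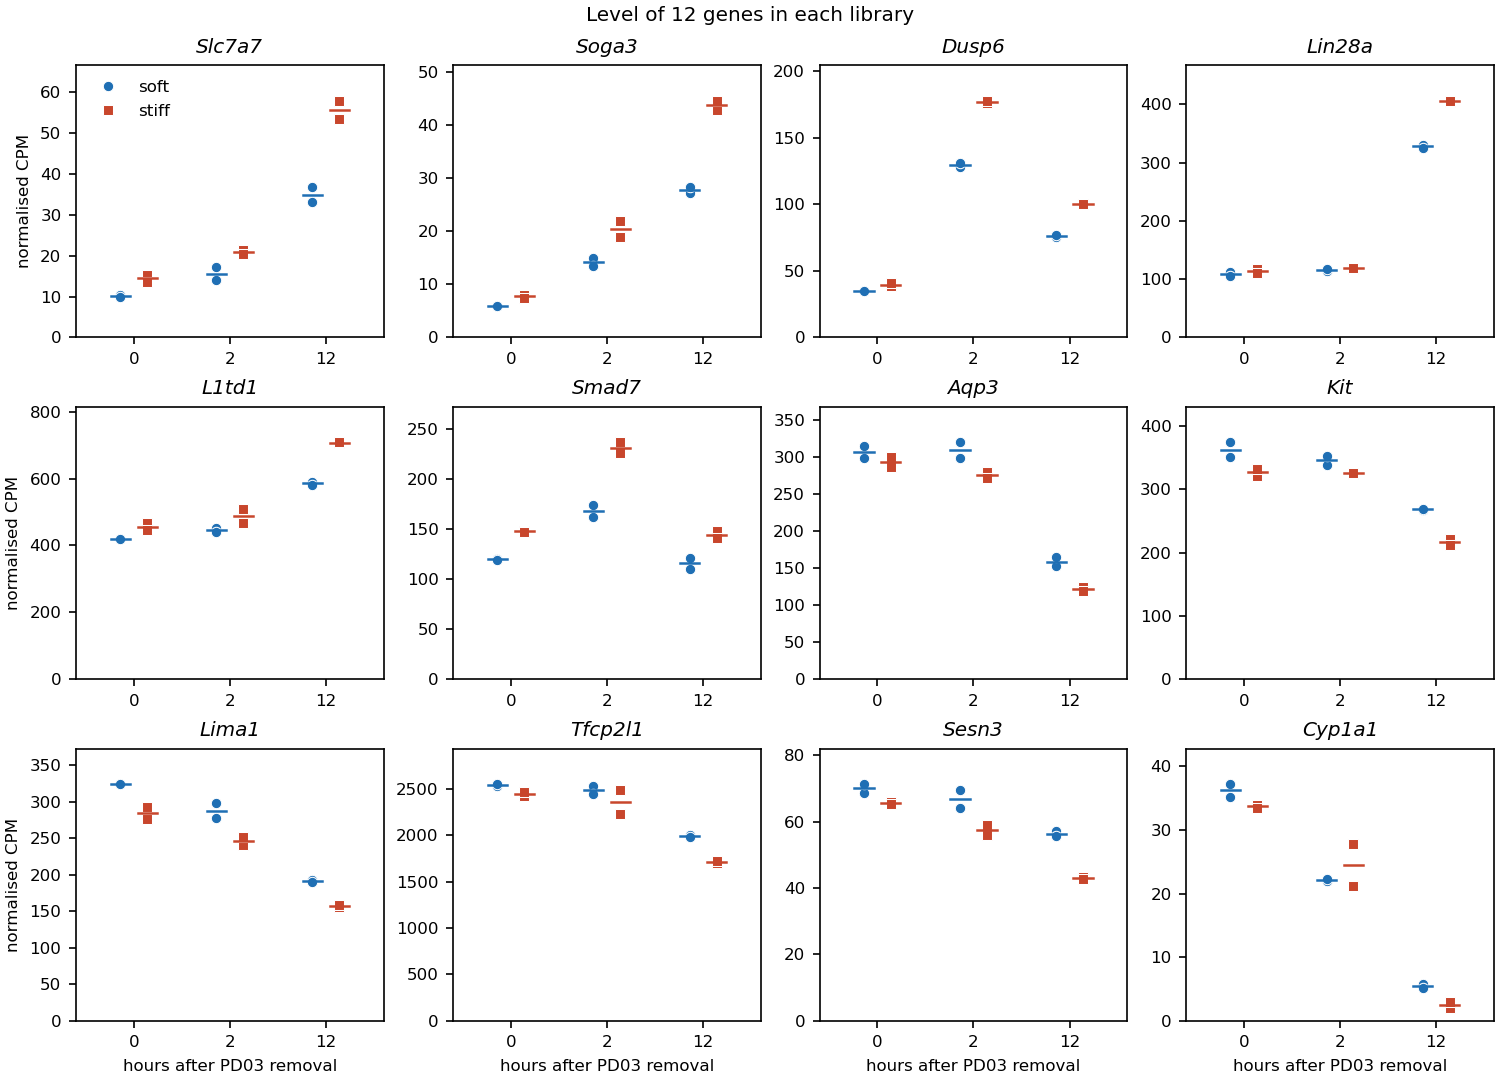
Normalised CPM (vertical axis, from 0) of 12 genes in each of the 12 libraries at 0, 2 and 12 h after PD03 removal, soft as circles and stiff as squares, with a line at the mean of 2 replicates. At 12 h both soft libraries lie below both stiff ones for *Slc7a7*, *Soga3*, *Dusp6*, *Lin28a*, *L1td1* and *Smad7*, and above them for the other 6 genes.

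Transporters and ion pumps were split, 4 lower and 3 higher. *Slc7a7*, the light chain of a transporter that carries cationic amino acids out of cells (GRCm38 chromosome 14, 54369442 to 54417780), had 33.1 and 36.7 CPM on soft and 53.4 and 58.0 on stiff substrates. The difference was 1.59-fold (log2FC −0.67 ± 0.0890 SE, edgeR adjusted p = 0.000343). The soft libraries were also below the stiff ones at 0 h, with 10.5 and 9.95 against 15.2 and 13.7 CPM, and at 2 h, with 14.0 and 17.2 against 21.3 and 20.5. *Slc7a7* overlaps *Oxa1l* on the opposite strand. Of the other 24 amino acid transporter genes tested none was called, and its partner chain *Slc3a2* had a log2FC of −0.15 (adjusted p = 0.214, edgeR). *Slc39a14*, which imports zinc, manganese and iron, and *Slc29a1*, a nucleoside transporter, were lower on soft by 1.25-fold and 1.18-fold. *Atp1a4*, the sodium pump chain of sperm, had only 8 and 8 counts on soft and 24 and 32 on stiff, so that its log2FC of −2.00 (standard error 0.488, adjusted p = 0.0432) rested on few reads. It did not pass in any fit that left out a library.

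*Aqp3*, a channel for water and glycerol (GRCm38 chromosome 4, 41092722 to 41098183), had 153 and 164 CPM on soft and 124 and 118 on stiff substrates at 12 h (log2FC 0.39 ± 0.0543 SE, edgeR adjusted p = 0.000343). At 0 h the groups overlapped, with 299 and 314 CPM on soft and 299 and 286 on stiff, and at 2 h they were 299 and 319 against 279.5 and 271. Of the 8 genes of water and glycerol channels and glycerol enzymes tested, *Aqp3* was the only one called. *Atp1b1*, a chain of the sodium pump, and *Trpm1*, a cation channel, were higher on soft, with log2FC of 0.26 and 0.27, and each overlaps another gene on the opposite strand.

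The 17 called genes of actin, membrane and matrix were split, 10 lower and 7 higher. *Lima1*, which bundles and stabilises actin filaments, had 193 and 190.3 CPM on soft and 156 and 158 on stiff (log2FC 0.29 ± 0.0502 SE, edgeR adjusted p = 0.00288), and it passed at 2 h as well (0.23). *Kank2*, a protein of the rim of focal adhesions, *Ablim1*, which binds actin, *Slmap*, a membrane protein, *Actg1*, cytoplasmic γ-actin, *Tnni1*, a troponin of slow muscle, and *Spp1*, the secreted matrix protein osteopontin, were also higher on soft. Their log2FC ranged from 0.16 (*Spp1*) to 0.49 (*Tnni1*). *Tmsb4x*, which holds actin monomers, was lower on soft, with 129 and 136 against 169 and 163 CPM (log2FC −0.33 ± 0.0553 SE, edgeR adjusted p = 0.00233). *Bin1*, which curves membranes, had 12.17 and 10.16 CPM on soft and 19.23 and 19.05 on stiff (log2FC −0.78 ± 0.136 SE, edgeR adjusted p = 0.00293), whereas at 2 h both soft libraries lay above both stiff ones (5.35 and 6.20 against 5.28 and 4.89 CPM). *Tns3*, a tensin of focal adhesions, *Col18a1*, a collagen of basement membranes, *Gja1*, the gap junction protein connexin 43, *Enc1*, *Epb41l4a*, *Adam23*, *Exoc3l* and *Robo4* had log2FC from −0.67 (*Robo4*) to −0.21 (*Epb41l4a*). With DESeq2, 13 of the 17 passed, all but *Slmap*, *Tnni1*, *Gja1* and *Adam23*. Without soft replicate 1, soft replicate 2, stiff replicate 1 or stiff replicate 2, 4, 4, 0 and 3 of the 17 passed.

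Of the list of SRF targets and actin cytoskeleton, 2 of 29 genes were called, *Lima1* and *Actg1*, with a list median of 0.046. Of 26 integrin and focal adhesion genes only *Tns3* was called, and of 19 collagen, laminin and basement membrane genes only *Col18a1* and *Spp1* were. None of the 21 tested targets of YAP and Hippo signalling was called. *Ctgf* and *Cyr61*, which are much used as readouts of YAP, had log2FC of −0.19 and 0.17 (standard errors 0.115 and 0.121, adjusted p = 0.66 and 0.73, edgeR). None of the 24 cadherin, claudin and keratin genes was called either.

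Of the 13 messenger RNAs of the mitochondrial genome, 7 were lower on soft and the other 6 were not called. These genes encode chains of the respiratory complexes and of ATP synthase. *mt-Nd2* had 553 and 490.4 CPM on soft and 693 and 711 on stiff substrates (log2FC −0.43 ± 0.0898 SE, edgeR adjusted p = 0.0125). *mt-Co1* had 6072 and 5814 against 6774 and 7398 CPM, a log2FC of −0.25. *mt-Atp6*, *mt-Nd1*, *mt-Cytb*, *mt-Nd4* and *mt-Nd5* had log2FC from −0.40 (*mt-Atp6*) to −0.31 (*mt-Nd5*), and the soft and stiff libraries did not overlap in any of the 7. The list median was −0.31 at 12 h, with 12 of 13 genes below 0. It was −0.13 at 0 h, −0.27 at 2 h and −0.17 at 12 h of CHIRON removal, with 12, 13 and 10 of the 13 genes below 0. At 0 h of the CHIRON experiment it lay the other way, with a median of 0.25, none of the 13 below 0 and a range from 0.074 (*mt-Nd6*) to 0.37 (*mt-Atp8*). Of all counts of a library, the 13 genes took 1.07% and 0.99% on soft and 1.17% and 1.26% on stiff at 12 h. Nuclear copies of mitochondrial sequence exist in the mouse genome and can share reads with these genes.

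**Figure D3:**
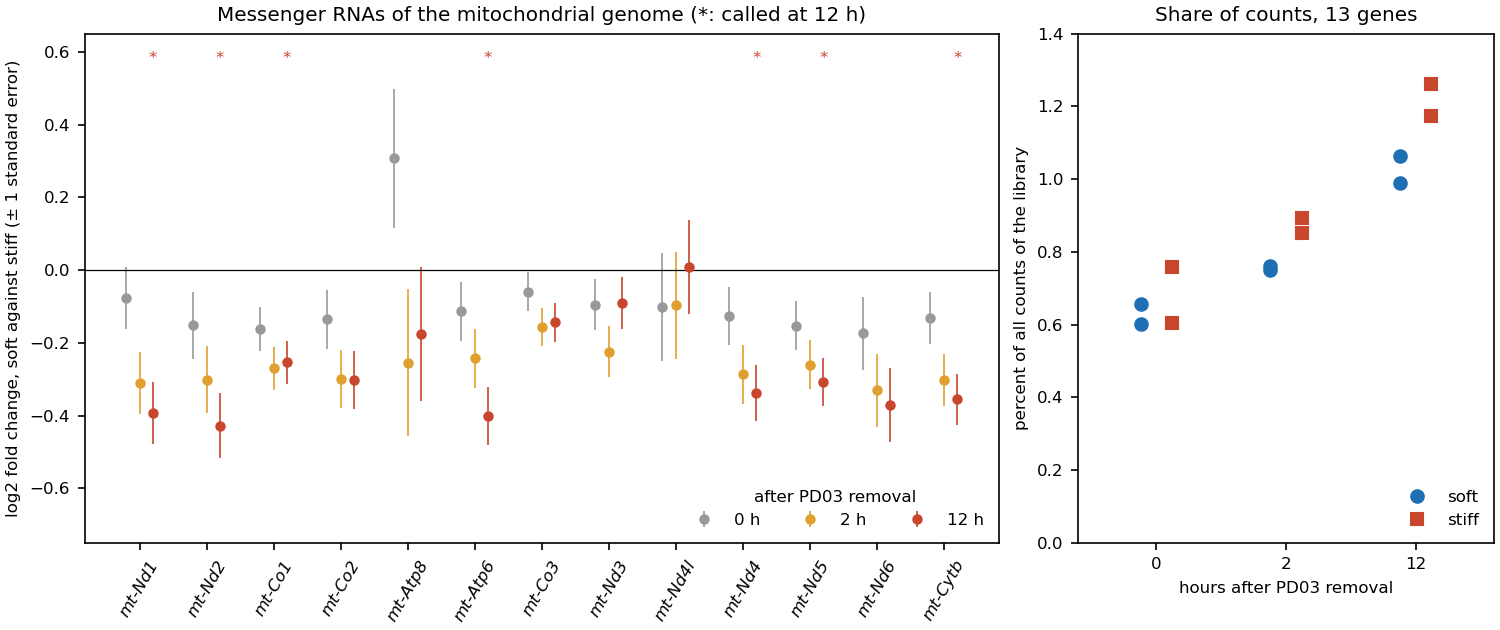
Left, log2 fold change of soft against stiff (vertical axis, ± 1 standard error) for the 13 messenger RNAs of the mitochondrial genome in genome order at 0, 2 and 12 h, with a star over the 7 called at 12 h. Right, their summed share of all counts in each library (vertical axis, percent), which was lower in both soft than in both stiff libraries at 12 h.

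The mitochondrial result was among the less stable ones. With DESeq2, 0 of the 7 passed (adjusted p between 0.291 and 0.646). Without soft replicate 2, stiff replicate 1 or stiff replicate 2, 0 of the 7 passed by edgeR, and without soft replicate 1, 5 did. With the spread of the 4 libraries at 12 h alone, 7 of the 7 passed. The mitochondrial ribosomal RNAs lay the same way, taking 9.68% and 9.04% of counts on soft and 10.6% and 10.5% on stiff at 12 h, and the part of ribosomal RNA depletion and of RNA quality in this was not tested. With the mitochondrial genome left out of the fit, 95 of the other 96 genes kept their call.

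The 9 called genes placed under metabolic enzymes were higher on soft. Called enzyme genes placed in other groups were not all so, and the cyclooxygenase gene *Ptgs1*, placed with the prostanoid genes, was lower. The shared direction of the 9 therefore depends on this placement. *Upp1*, which splits uridine, had 357 and 396 CPM on soft and 316 and 301 on stiff substrates (log2FC 0.29 ± 0.0512 SE, edgeR adjusted p = 0.00352). *Hk1*, the hexokinase that binds to mitochondria, had 82.0 and 91.2 against 68.5 and 67.9 CPM, and *Ldhb*, the lactate dehydrogenase chain of heart, had 104 and 104 against 83.0 and 85.8. Their log2FC were 0.35 and 0.30, and they were the 2 called of 24 genes of glycolysis and pyruvate, whose median was 0.00023. *Cdo1*, which oxidises cysteine, had 31.0 and 36.7 against 23.7 and 24.3 CPM (log2FC 0.50 ± 0.0908 SE, edgeR adjusted p = 0.00396). *Bhmt*, which remakes methionine from homocysteine, *Ak4*, an adenylate kinase of mitochondria, *Etfa*, which passes electrons from fatty acid oxidation to the respiratory chain, and the N-glycan enzymes *Mgat5* and *Man2a1* had log2FC from 0.21 (*Ak4*) to 0.49 (*Etfa*). Of these 9 genes, 8 were also above 0 at 0 h and 8 at 2 h. With DESeq2, 7 of the 9 passed, all but *Etfa* and *Man2a1*. Without soft replicate 1, 4 passed, without stiff replicate 1, 1 did, and without soft replicate 2 or stiff replicate 2, 0 of the 9 did.

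The 7 called genes placed under mitochondrial fusion, autophagy, lysosome and stress were higher on soft. *Mfn1*, which fuses mitochondria, had 157 and 146 CPM on soft and 129 and 119 on stiff (log2FC 0.29 ± 0.0546 SE, edgeR adjusted p = 0.00486). *Sesn3*, a sestrin that restrains the growth kinase mTORC1, had 57.2 and 55.6 against 43.5 and 42.6 CPM (log2FC 0.39 ± 0.0700 SE, edgeR adjusted p = 0.0036). In both genes the soft libraries lay above the stiff ones at 0 h and 2 h too. For *Mfn1* at 0 h the groups were barely apart, with 245.3 and 247.32 against 232.63 and 245.29 CPM (log2FC 0.043). *Calcoco2*, a receptor that brings cargo to autophagosomes, *Atg7*, an enzyme needed to form them, *Glmp*, a lysosomal membrane protein, *Hspb8*, a small heat shock protein, and *Susd6* had log2FC from 0.25 (*Glmp*) to 0.40 (*Atg7*). *Atg7* and *Glmp* lost their calls with DESeq2 and in every fit that left out a library, and in each such fit 1 or 2 of the 7 passed. At 0 h, 4 of the 7 were above 0, and the soft libraries of *Calcoco2*, *Hspb8* and *Atg7* lay below the stiff ones. Of 14 targets of p53 and 17 genes of heat shock and the unfolded protein response, none was called, and their medians were 0.086 and 0.025.

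Innate immunity, complement and prostanoid genes were lower on soft in 5 cases of 6. *Ptgs1*, the cyclooxygenase that starts prostaglandin synthesis, had 64 and 61 counts on soft and 120 and 110 on stiff (log2FC −1.08 ± 0.196 SE, edgeR adjusted p = 0.00392). *Nlrc4*, an inflammasome sensor, had 24.8 and 25.5 against 40.3 and 35.5 CPM, and *Cd37*, a tetraspanin, had 30.3 and 31.6 against 45.9 and 40.9. Their log2FC were −0.59 and −0.49, and *Cd37* overlaps *Tead2* on the opposite strand. *Ddx58*, a sensor of viral RNA, had a log2FC of −0.27, and *Cpn1*, a carboxypeptidase of plasma, had 32 and 38 counts against 69 and 56 (log2FC −1.03), and it lost its call with DESeq2 and in every fit that left out a library. *Serping1*, the inhibitor of complement C1, was higher on soft, with 9.83 and 8.79 against 5.69 and 5.77 CPM. In the wider list of eicosanoid synthesis *Ptgs1* was the only 1 of 13 genes called.

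The 6 called genes placed under RNA processing, nucleolus and chromatin were lower on soft. *Noct*, the nocturnin gene, had 54.9 and 53.8 CPM on soft and 73.8 and 74.6 on stiff (log2FC −0.45 ± 0.0879 SE, edgeR adjusted p = 0.00733). The splicing factor genes *Sf3a2* and *Sf3b4*, *Lyar*, a nucleolar protein, *Ino80e*, of the INO80 remodelling complex, and *Zc3h18* had log2FC from −0.29 (*Sf3a2*) to −0.21 (*Zc3h18*). None of the 6 kept its call in any fit that left out a library. *Sf3a2* and *Plekhj1* overlap each other on opposite strands and both were lower on soft, so they cannot be counted as separate observations. None of 79 cytosolic ribosomal protein genes and none of 65 replication-dependent histone genes was called, with medians of −0.012 and −0.0040.

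Receptor and hormone genes were split. *Kit*, the receptor of stem cell factor, had 268 and 269 CPM on soft and 222 and 213 on stiff (log2FC 0.31 ± 0.0474 SE, edgeR adjusted p = 0.00109), and it was the only 1 of 20 receptor tyrosine kinase genes tested that was called. Both soft libraries lay above both stiff ones at 0 h and at 2 h too. *Tgfbr3*, a co-receptor of TGF-β, and *Mcf2*, a guanine nucleotide exchange factor, were higher on soft as well, with log2FC of 0.49 and 0.29. *Trh*, the precursor of thyrotropin-releasing hormone, had 369.9 and 422 against 488 and 483 CPM. *Cntfr*, a receptor chain of the LIF family of cytokines, had 8.80 and 7.68 against 14.1 and 15.3 CPM, and *Aplp1*, a relative of the amyloid precursor protein, had 27.4 and 27.4 against 36.9 and 36.9. These 3 had log2FC of −0.29, −0.84 and −0.43, and *Cntfr* lost its call with DESeq2. *Mbp* and *Mobp*, known as myelin genes, were higher on soft, with log2FC of 0.55 and 0.35, and both lost their call with DESeq2.

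Of the remaining 9 genes, whose functions were not grouped, 7 were lower on soft. *Soga3* (GRCm38 chromosome 10, 29143839 to 29199630) shared the smallest adjusted p with *Dusp6*, *Slc7a7* and *Aqp3*, with 27.3 and 28.4 CPM on soft and 42.9 and 44.6 on stiff (log2FC −0.65 ± 0.0918 SE, edgeR adjusted p = 0.000343). It passed at 2 h as well, with a log2FC of −0.52, and it overlaps Gm9996 on the opposite strand. *Crybg3*, *Fam196a*, *Plekhj1*, *Enox1*, *Nxn* and *Fam129b* had log2FC from −0.73 (*Crybg3*) to −0.24 (*Fam129b*), while *2510009E07Rik* and *C130073F10Rik* were higher on soft, with 0.44 and 0.66.

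**Figure D4:**
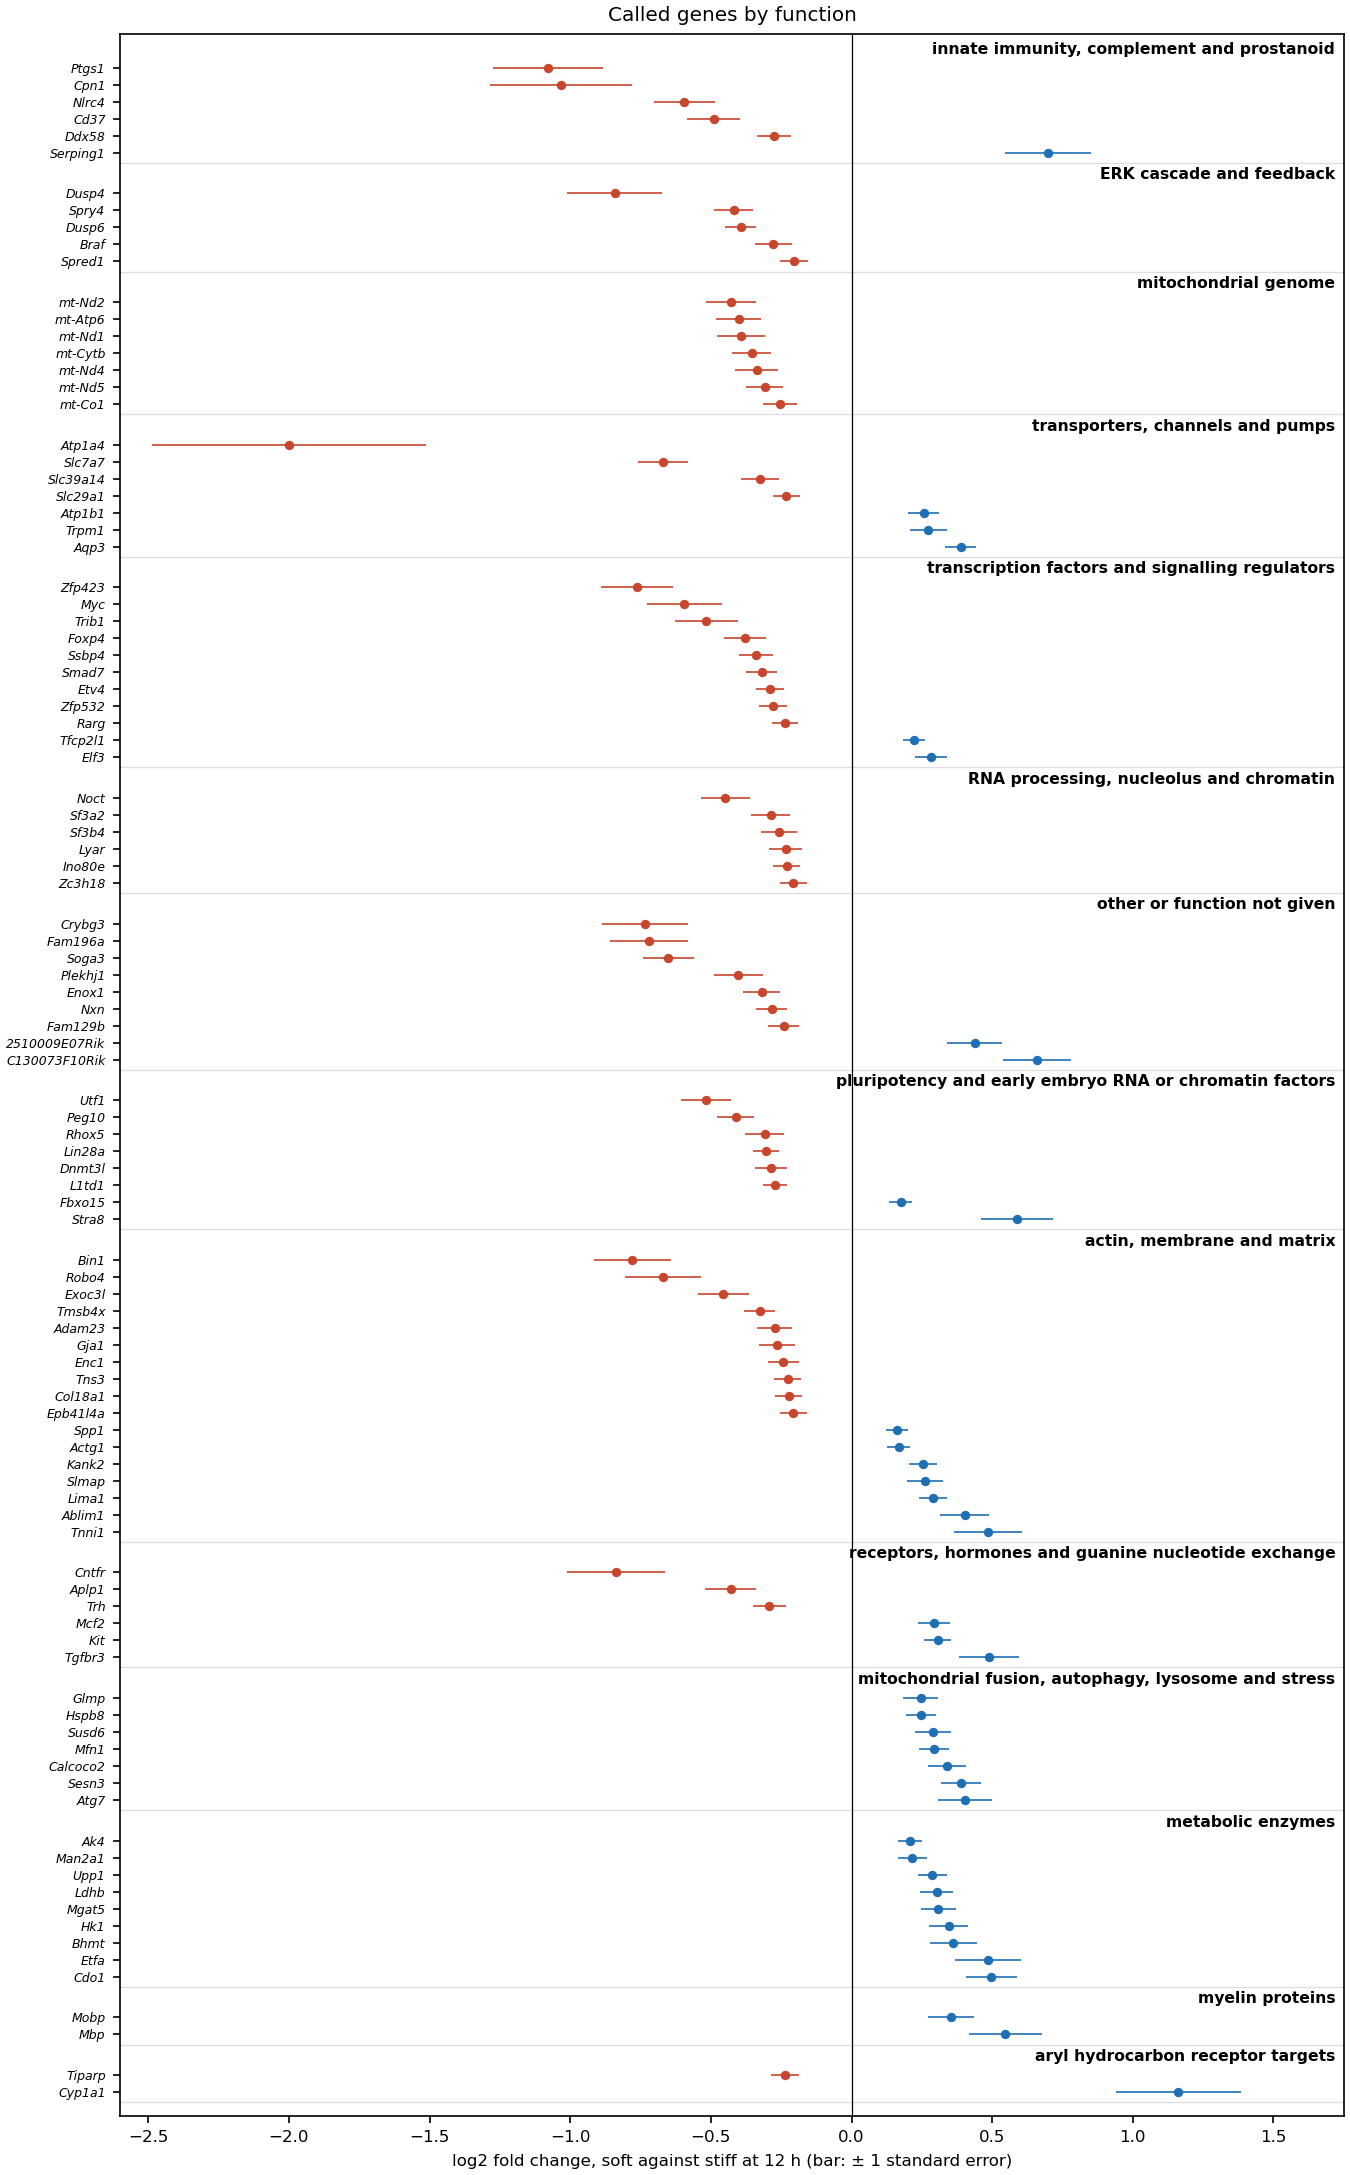
Log2 fold change of soft against stiff at 12 h (horizontal axis, ± 1 standard error) of the called genes, in 14 function groups written after the calls were known. Genes higher on soft lie to the right and those lower on soft to the left, and most lie within 0.5 of 0.

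Among the called genes, the largest log2FC on the higher side was that of *Cyp1a1*, an enzyme that oxidises foreign compounds and the best known target of the aryl hydrocarbon receptor. It had 5.84 and 5.21 CPM on soft and 2.09 and 2.89 on stiff substrates at 12 h, which were 85 and 80 counts against 29 and 35. The difference was 2.24-fold (log2FC 1.16 ± 0.223 SE, edgeR adjusted p = 0.00642). At 0 h the level was several times higher on both substrates, with 35.2 and 37.2 CPM on soft and 34.0 and 33.5 on stiff. At 2 h the groups overlapped, with 22.0 and 22.3 against 21.3 and 27.8 CPM (log2FC −0.14), and at 12 h of CHIRON removal the log2FC was −0.29. *Tiparp*, another target of the receptor, lay the other way, with 116 and 121 CPM on soft and 139.9 and 140.3 on stiff at 12 h (log2FC −0.24 ± 0.0505 SE, edgeR adjusted p = 0.0141). At 0 h *Tiparp* had 104 and 107 against 107 and 110.4 CPM, and at 2 h 167 and 166 against 185 and 191. *Tiparp* lost its call in every fit that left out a library, and *Cyp1a1* lost its call in some of them. Both genes passed with DESeq2 and kept their direction in every alternative. *Tiparp* also overlaps an annotated pseudogene on the opposite strand. The other 8 tested genes of the pathway were not called, among them the receptor gene *Ahr* at 0.016 and the enzyme gene *Nqo1* at −0.017. At levels near 1 CPM or below, the uncalled *Aldh3a1*, *Cyp1a2* and *Cyp1b1* had log2FC of 1.26, 0.56 and 0.37 and the repressor gene *Ahrr* −0.45 (standard errors 0.592, 0.727, 0.657 and 0.472).

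The promoters of this pair are shown because the pair shares a regulator by background knowledge and differed in opposite directions. The windows are the 300 bases around the RefSeq start site in GRCm38.p6, at chr9:57697363-57697662 (plus strand) for *Cyp1a1* and chr3:65528197-65528496 (plus strand) for *Tiparp*. Capitals mark the letters GCGTG, the core of the receptor's binding site, wherever they occur on either strand. Whether the receptor binds at the marked places was not tested.
Cyp1a1: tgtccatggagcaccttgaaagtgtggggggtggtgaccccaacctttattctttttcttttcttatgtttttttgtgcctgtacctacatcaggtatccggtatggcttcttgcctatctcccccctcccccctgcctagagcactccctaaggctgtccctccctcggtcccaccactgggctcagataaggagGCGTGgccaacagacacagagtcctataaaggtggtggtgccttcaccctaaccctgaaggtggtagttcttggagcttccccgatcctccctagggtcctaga
Tiparp: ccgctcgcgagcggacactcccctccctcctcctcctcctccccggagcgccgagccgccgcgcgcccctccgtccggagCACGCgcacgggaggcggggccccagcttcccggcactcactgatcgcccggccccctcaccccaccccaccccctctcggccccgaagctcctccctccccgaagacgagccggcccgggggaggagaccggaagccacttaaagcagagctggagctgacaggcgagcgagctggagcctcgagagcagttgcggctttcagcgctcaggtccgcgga
Each window held the core once, 54 bases before the start site in *Cyp1a1* and, as CACGC on the printed strand, 170 bases before it in *Tiparp*. The core is common. It was found in 55.3% of the 10234 tested genes with such a window, in 62.5% of 40 genes lower and in 48.5% of 33 genes higher on soft. An AP-1 motif (TGACTCA or TGAGTCA, both strands) was in 4.30%, 2.50% and 6.06% of the same 3 sets. The ETS motif CCGGAAGT was in 8.80% of all, in 0 of 40 and in 1 of 33.

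The 103 genes were next followed in libraries that the calls at 12 h did not compare. At 0 h in 2i + LIF only 4 genes (0.0298%) passed between soft and stiff by edgeR, and at 2 h 18 genes (0.134%) did. *Smad7* and *Dnmt3l* passed at both, and *Dusp6*, *Spry4*, *Soga3*, *Nxn* and *Lima1* passed at 2 h, each in the direction of 12 h. Of the 64 genes lower on soft at 12 h, 56 (87.5%) had the same sign at 0 h and 58 (90.6%) at 2 h, and of the 39 higher genes 32 (82.1%) and 29 (74.4%) did. Over all 13422 genes the sign was shared by 53.5% and 55.3%. The sizes were smaller: the median log2FC of the lower genes was −0.12 at 0 h, −0.17 at 2 h and −0.33 at 12 h, and that of the higher genes was 0.079, 0.081 and 0.31. The values at 12 h chose the genes, so these sizes are given as a description and not as a test.

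The change of the difference from 0 h to 12 h was tested directly. No gene of 13422 passed (0.0%, edgeR), with 900 at an unadjusted p under 0.05, and DESeq2 gave 0 genes and 431. Among the 103 genes the smallest adjusted p of this test was 0.17, shared by *Hspb8*, *Spp1* and *Calcoco2*, all higher on soft at 12 h, and that of the genes lower on soft was 0.174 (*Aplp1*). The difference between soft and stiff at 12 h was therefore not shown to differ in size from that at 0 h for any single gene.

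The same substrates and time were available after CHIRON removal, where PD03 stayed in the medium. There no gene of 14609 passed between soft and stiff at 12 h (0.0%, edgeR), with 470 at an unadjusted p under 0.05. Of the 63 lower genes with a value, 46 (73.0%) were below 0, and of the 39 higher genes 27 (69.2%) were above 0, against 52.4% of the same sign over all genes. The medians were −0.11 and 0.080. *Dusp6*, *Myc* and *Cd37* had log2FC of −0.49, −0.73 and −0.43 there, at unadjusted p = 0.00123, 7.72e-05 and 0.000356 (edgeR), which did not pass after adjustment. *Slc7a7* and *Soga3* had log2FC of −0.47 and −0.59 (unadjusted p = 0.167 and 0.146, edgeR). At 0 h of the CHIRON experiment the signs were shared by 31 of 63 lower genes (49.2%) and by 22 of 39 higher genes (56.4%), with medians of 0.0029 and 0.021. Tested directly, no gene of 14758 differed between the removals in its difference of soft and stiff at 12 h (0.0%, edgeR, 740 at an unadjusted p under 0.05, and 0 and 541 with DESeq2).

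**Figure D5:**
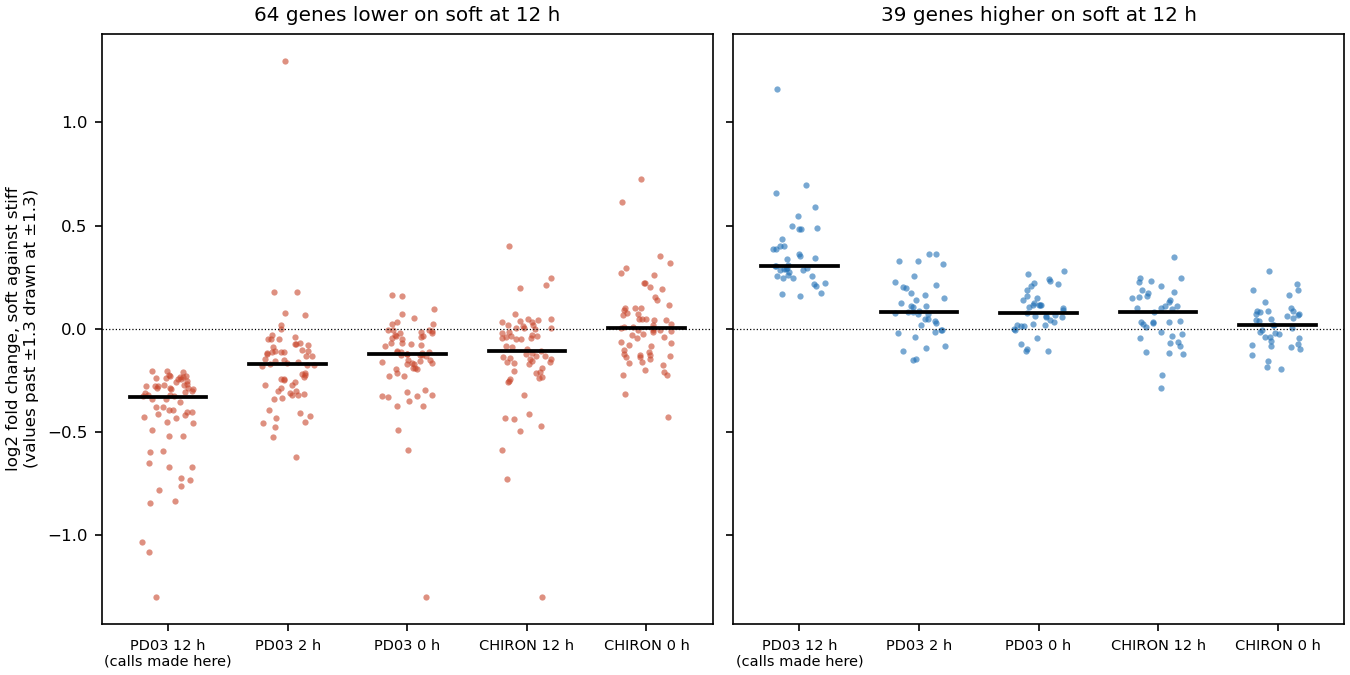
Log2 fold change of soft against stiff (vertical axis, values past ±1.3 drawn at ±1.3) of the 64 genes lower (left) and the 39 genes higher (right) on soft at 12 h of PD03 removal, in the libraries that made the calls and in those of other times and of CHIRON removal. Each point is a gene and the bar is the median, which keeps its sign at 0 h and 2 h of PD03 removal and at 12 h of CHIRON removal and lies near 0 at 0 h of the CHIRON experiment.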

How the data were processed

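Reads of ribosome-depleted RNA were aligned to GRCm38 (mm10) with TopHat2 2.1.0 and counted per gene with featureCounts 1.5.0 by the authors, who deposited raw counts. Whether reads were counted by strand was not given in the sources used here. The table held 35022 genes after 23 empty lines were removed. Of these, 34888 were matched by symbol to GENCODE M21 and 19322 were protein-coding. A further 12 columns of other samples were not used.

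Protein-coding genes with sufficient counts (filterByExpr, minimum count 10, minimum total 15) were normalised by TMM and fitted with the quasi-likelihood model of edgeR 4.0.16 in R 4.3.3, with the 6 groups of the 12 libraries in 1 model. The biological coefficient of variation was 0.0386. Adjustment was by Benjamini and Hochberg over all genes tested, and the standard error was the log2 fold change divided by the square root of F. The CHIRON libraries were fitted likewise, without 1 stiff library at 2 h that held 171333 counts. DESeq2 1.42.0, the tool of the study, was an alternative, as were its size factors, no filter, all genes, the 4 libraries alone, a replicate block and leaving out each library. The procedure was tested on simulated counts. No replicate was a copy of another, since chi-square over degrees of freedom between replicates was 2.19 to 3.16.

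The libraries were set by their labels. The comparison itself and the gene lists were chosen with earlier results of these data known. Genes to name were the 15 with the smallest adjusted p in each direction, the 5 with the largest fold change in each direction, *Slc7a7*, *Aqp3* and *Tfcp2l1*, and each called member of a list. The other called genes were given by function, and 1 called gene is counted but not reported here. Lists are described by counts and medians, with no test. Promoters were taken from RefSeq (GRCm38.p6). Python 3.11.15, pandas 2.3.3 and matplotlib 3.10.9 made tables and plots.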

Additional observations from a re-analysis of the deposited data

How the results depend on the processing

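The number of genes called between soft and stiff at 12 h moved from 103 (39 higher, 64 lower on soft) to 187 (83 and 104) when genes of low counts were kept, and to 175 (70 and 105) with only the 4 libraries at 12 h. Leaving out each library gave between 12 and 32 genes, between 4 and 11 higher and between 8 and 21 lower, with the lone library assumed to vary like the other groups. DESeq2 gave 72 genes, its size factors in edgeR 102, a fit of every gene 77, and the fit without the mitochondrial genome, chosen after seeing the data, 95. No called gene changed direction under any of these. Replicate numbers gave no pairing: same-numbered libraries of soft and stiff deviated with correlations of −0.034 at 0 h, −0.014 at 2 h and −0.031 at 12 h. With a replicate block, 115 genes passed (42 higher, 73 lower), all 103 among them. At 0 h, 4 genes passed, 3 with the block and 2 with DESeq2, and at 2 h 18, 20 and 14 did, by alternatives chosen after seeing the data. The tests of the change from 0 h and of the difference between removals gave 0 genes with the block as well, with 901 and 690 at an unadjusted p under 0.05, and all 12 CHIRON libraries gave 0, with 60. With 2 libraries a group, genes of few counts such as *Atp1a4* are measured with least precision.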

Other observations

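When all genes of the table were fitted, 2 genes that are not protein-coding passed between soft and stiff at 12 h by edgeR. The processed pseudogene *Gm12463* had 30.2 and 30.8 CPM on soft and 21.8 and 22.6 on stiff substrates, a log2FC of 0.46 ± 0.093 SE (adjusted p = 0.0189). The unprocessed pseudogene *Gm10925* had 836 and 743 CPM on soft and 1010.2 and 1066 on stiff, a log2FC of −0.40 (adjusted p = 0.0266). Over the 4 libraries *Gm10925* was ordered like *mt-Atp6*, which had 997 and 899 CPM on soft and 1220 and 1284 on stiff (log2FC −0.40). *Gm10925* may therefore not be an observation separate from the mitochondrial genes. Reads of pseudogenes can come from their parent genes, and this was not tested.

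Genes of sterol and fatty acid synthesis lay below 0 in 22 of 27 cases at 12 h, with a median of −0.065 and a range from −0.15 (*Scd2*) to 0.066 (*Elovl6*), and none was called. At 2 h all 27 lay below 0 (median −0.13), but at 0 h 9 did (median 0.0076), at 12 h of CHIRON removal 7 (median 0.046) and at 0 h of the CHIRON experiment 25 (median −0.054). The median over all genes at 12 h of PD03 removal was −0.0023.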
